A study of Mus musculus with 4 samples.

Results

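Secretoglobins and other genes of the airway club cell were followed through 4 lung libraries of mice. The 5 genes are 3 secretoglobins (Scgb1a1, Scgb3a1 and Scgb3a2), the tight junction gene Cldn10 and the carbonyl reductase gene Cbr2. They were chosen by name, and all 5 of them are among the 17780 genes of the table.

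The libraries came from left lung tissue of male C57BL/6J mice (C57BL/6 in the labels), bought at 6 to 7 weeks of age and dosed by mouth 5 times per week for 4 weeks. The vehicle group (V) received carboxymethylcellulose alone, the amiodarone group (A) received the antiarrhythmic drug amiodarone at 300 mg per kg, the dabigatran group (D) received the thrombin inhibitor dabigatran etexilate at 60 mg per kg, and the combined group (A+D) received both drugs at these doses. The labels give 28 days of treatment and the methods give day 26 for the tissue. Each group holds 1 library, and the sources used here do not say whether a library came from 1 mouse or from a pool. No difference below has a check across animals, and no p-value is given.

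Club cells are secretory cells of the conducting airways. They release secretoglobins, small secreted proteins, into the fluid that lines the airway. They also metabolize foreign chemicals and can give rise to ciliated cells during repair. Because lung tissue and not sorted cells was measured, fewer cells of a type and less RNA per cell cannot be told apart in any value below.

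Levels are given as FPKM, a fragment count divided by transcript length and by library depth, so that genes of different length can be compared. Total reads per library ranged from 17498486 to 18903401. A ratio of FPKM between libraries is given with its exact Clopper-Pearson 95% interval from the reads behind it. This interval covers counting error only, since sequenced fragments are not independent molecules and animals also vary. A difference is called beyond counting error when the interval does not include 1. Genes with more reads pass this at smaller differences, so counts of genes beyond counting error depend on read depth.

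Scgb1a1, the secretoglobin also known as CC10 or uteroglobin, was the gene with the highest FPKM and the most reads in every library. Its level was 124168 FPKM in the vehicle library and 73994 in the amiodarone library. It was 99032 in the dabigatran library and 97786 in the combined one. The vehicle library was therefore the highest and the amiodarone library the lowest, with the dabigatran and combined libraries close to each other between them.

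Cbr2, which reduces carbonyl compounds with NADPH, had the second highest level of the 5 genes. It measured 6848 FPKM in V, 4732 in A, 5536 in D and 5268 in A+D. Scgb3a2, a secretoglobin of the airway epithelium, measured 2069 FPKM in V, 1272 in A, 1681 in D and 1185 in A+D. Unlike Scgb1a1 and Cbr2, Scgb3a2 had its lowest level in the combined library.

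Scgb3a1, a further secreted member of the family, was at 595.6 FPKM in V, 419.5 in A, 625.6 in D and 523.0 in A+D. It was the only one of the 5 with its highest level in the dabigatran library. Cldn10, a claudin that forms paracellular ion channels in tight junctions, was at 37.1 FPKM in V, 23.0 in A, 30.8 in D and 33.6 in A+D. Cldn10 rested on 383 to 577 reads per library, against 568928 to 891579 for Scgb1a1, so its ratios were the least precise of the 5.

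The order by FPKM was Scgb1a1, Cbr2, Scgb3a2, Scgb3a1 and Cldn10 in each of the 4 libraries, and no neighbors in this order overlapped within their counting intervals. The estimated read numbers of the 5 genes were exactly whole in all 20 cases, at the 2 decimals the table gives.

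**Figure D1:**
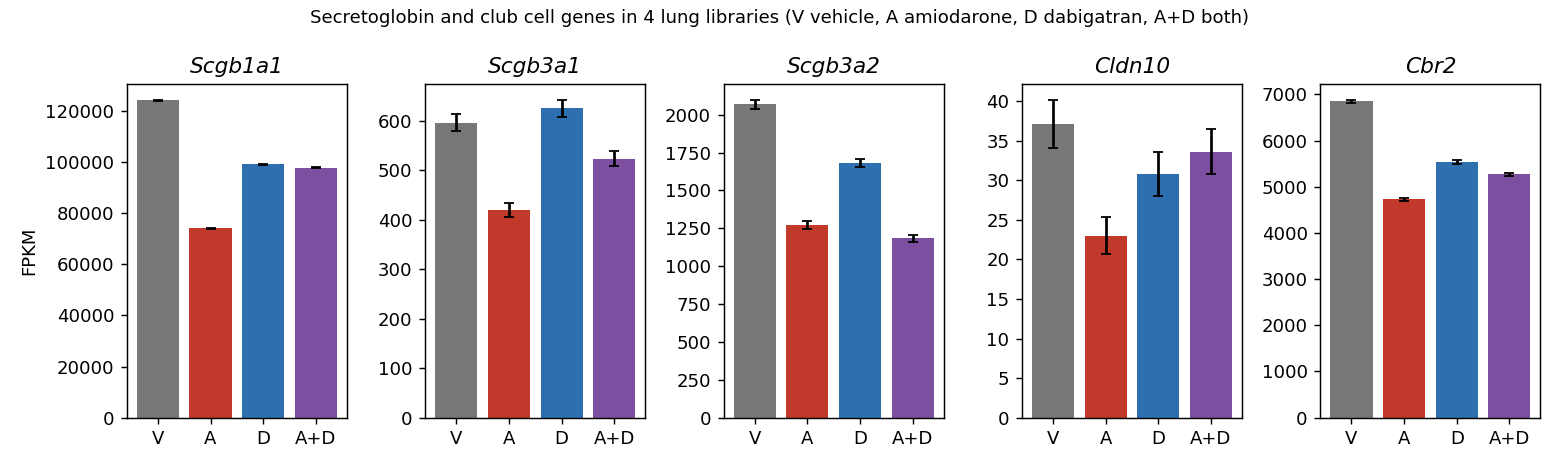
Level of each of the 5 genes (FPKM, linear axis from 0 with its own scale per gene) in the vehicle (V), amiodarone (A), dabigatran (D) and combined (A+D) libraries; bars are single libraries and error bars are 95% counting intervals. The vehicle bar is the tallest for Scgb1a1, Scgb3a2, Cldn10 and Cbr2, and the amiodarone bar is the lowest for all but Scgb3a2.

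In GRCm38.p6 coordinates from RefSeq, Scgb1a1 lies on chromosome 19 (9083642 to 9087956), Scgb3a1 on chromosome 11 (49663595 to 49665118), Scgb3a2 on chromosome 18 (43764301 to 43767399), Cldn10 on chromosome 14 (118787871 to 118874525) and Cbr2 on chromosome 11 (120729485 to 120732025). The values sum the reads over a gene, so the 6 RefSeq transcripts of Cldn10 are not separated.

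A single gene held a large part of each library. Scgb1a1 took 5.10% of all reads in V, 3.04% in A, 4.05% in D and 4.02% in A+D. Sftpc, the surfactant protein gene of alveolar type 2 cells, was second in every library, with 1.46% to 1.53% of the reads. The 5 genes together took 5.87%, 3.57%, 4.69% and 4.61% in the same order.

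The share that Scgb1a1 lost between the vehicle and amiodarone libraries was 2.06 percentage points. This was 22.5% of all share lost by any gene (9.13 points), the largest loss of the 17780 genes, and Cbr2 had the third largest. Between vehicle and dabigatran, Scgb1a1 lost 1.04 points, 24.9% of the 4.19 points lost in all, and Cbr2 was second. Between the amiodarone and combined libraries Scgb1a1 gained 0.985 points, 18.2% of all share gained and again the largest gain.

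**Figure D2:**
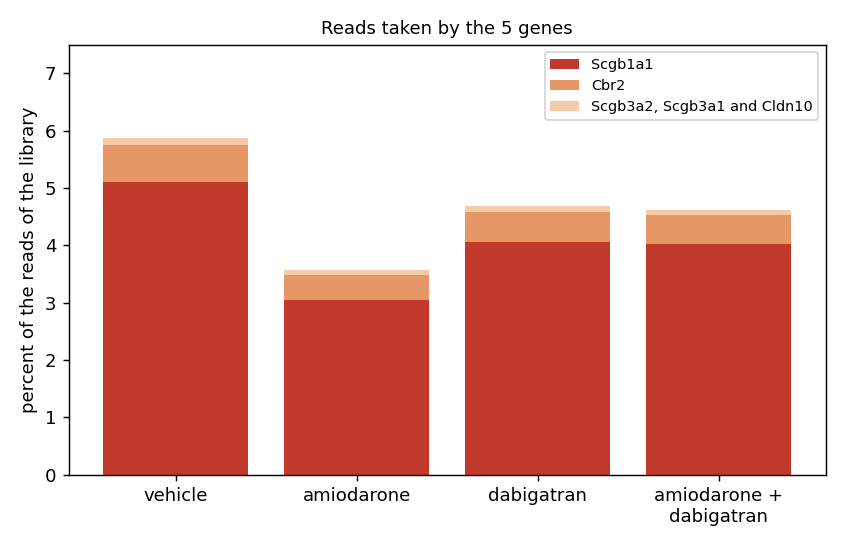
Percent of all reads of a library (linear axis from 0) taken by Scgb1a1, by Cbr2 and by the other three genes together, as stacked bars for the 4 libraries. The stacks reach 5.87%, 3.57%, 4.69% and 4.61% from left to right, and Scgb1a1 makes up most of each.

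The first comparison asked how the club cell genes stood after amiodarone. All 5 were lower with amiodarone than with vehicle beyond counting error, which held for 30.1% of the 13402 genes detected at 1 FPKM or more in either library. The ratio was 0.596 (0.594 to 0.598) for Scgb1a1, 0.615 (0.600 to 0.629) for Scgb3a2 and 0.619 (0.543 to 0.706) for Cldn10. These 3 were lower by 1.5-fold or more, a size reached by 7.22% of detected genes.

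Scgb3a1 and Cbr2 were lower by less, at ratios of 0.704 (0.674 to 0.735) and 0.691 (0.685 to 0.697). The median log2 ratio of the 5 genes was -0.69, beside -0.05 for all detected genes, whose central 90% ran from -0.70 to 0.64. When the libraries were instead scaled to the ciliated cell genes described below, which were themselves lower with amiodarone, the median of the 5 became -0.14, Scgb3a1 (log2 ratio 0.05) and Cbr2 (0.02) were no longer lower, and Cldn10 (-0.14, -0.33 to 0.05) was within counting error.

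Dabigatran alone was compared with the same vehicle library, so both comparisons share that library. Scgb1a1 was lower with dabigatran at a ratio of 0.798 (0.795 to 0.800), Scgb3a2 at 0.812 (0.794 to 0.830), Cldn10 at 0.830 (0.734 to 0.938) and Cbr2 at 0.808 (0.801 to 0.815). These 4 genes, within a narrow band, were thus lower beyond counting error, as were 13.4% of the 13373 detected genes. Scgb3a1 was higher at 1.05 (1.01 to 1.09), as were 15.2% of detected genes beyond counting error.

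Ciliated cell genes stood lower as well, at 13 of 19 beyond counting error with none higher and a median log2 ratio of -0.19. General epithelial genes had 7 of 12 lower and 1 higher, with a median of -0.12. The shares over all detected genes were the 13.4% lower and 15.2% higher given above. Scaled to the ciliated list, the median of the 5 club cell genes was -0.058, and Cldn10 (-0.03, -0.20 to 0.15) was within counting error. It was also within counting error when scaled to the epithelial list (-0.16, -0.34 to 0.01).

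None of the 5 reached 1.5-fold in either direction with dabigatran, which 2.97% of detected genes did. The median log2 ratio of the 5 was -0.30, beside 0.00 for all detected genes.

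The combined library was then compared with the amiodarone library, which it shares with the first comparison. Scgb1a1 was higher with both drugs at a ratio of 1.32 (1.32 to 1.33), Scgb3a1 at 1.25 (1.19 to 1.30), Cldn10 at 1.46 (1.28 to 1.67) and Cbr2 at 1.11 (1.10 to 1.12). Scaled to the ciliated list, Cbr2 was no longer higher (log2 ratio -0.02). Scgb3a2 alone was lower, at 0.932 (0.908 to 0.957).

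Being higher beyond counting error applied to 21.1% of the 13261 genes detected here, and being lower to 15.0%. None of the 5 reached 1.5-fold, which 4.53% of detected genes did. The median log2 ratio of the 5 was 0.32, beside 0.03 for all detected genes.

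Amiodarone in the presence of dabigatran was read from the combined and dabigatran libraries, neither of which enters the first comparison. The median log2 ratio of the 5 was -0.07, beside -0.01 for all 13379 detected genes. Scgb1a1 was at 0.987 (0.984 to 0.991) and Cbr2 at 0.952 (0.943 to 0.960), and both were higher instead when scaled to the ciliated list (log2 ratios 0.12 and 0.06); Scgb1a1 was also higher when scaled to general epithelial genes (0.05). Cldn10 did not differ beyond counting error, at 1.09 (0.965 to 1.23), but was higher beyond it when scaled to the ciliated list (log2 ratio 0.26, 0.08 to 0.44) or to the epithelial list (0.19, 0.01 to 0.37). Scaled to the epithelial list, Cbr2 was within counting error (-0.0068).

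Scgb3a2 showed the widest gap between these libraries, with a ratio of 0.705 (0.688 to 0.723), and Scgb3a1 followed at 0.836 (0.803 to 0.870). In all, 4 of the 5 were lower beyond counting error, against 23.5% of detected genes. For Scgb1a1 and Cbr2 this rested on high read numbers. Their ratios stood above those of 49.1% and 39.3% of detected genes. None of the 5 reached 1.5-fold, which 8.83% of detected genes did in either direction.

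**Figure D3:**
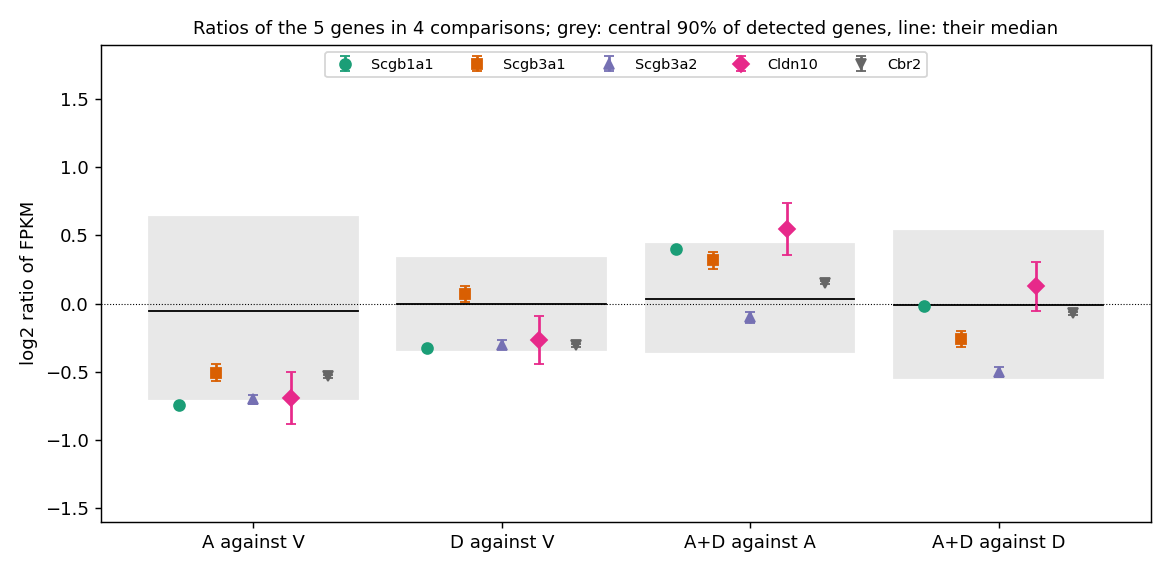
Log2 ratio of FPKM for the 5 genes in 4 comparisons of the vehicle (V), amiodarone (A), dabigatran (D) and combined (A+D) libraries; points are single comparisons, error bars are 95% counting intervals, and grey boxes and lines show the central 90% and the median of all detected genes. All 5 points lie well below the line for A against V, while for A+D against D they spread from -0.50 for Scgb3a2 to 0.13 for Cldn10.

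Ratios between genes of the same library do not depend on how libraries are scaled to each other. The pairs were chosen with the values known. Scgb1a1 stood at 59.1 to 60.9 times (95% counting interval) the level of Scgb3a2 in V, at 57.1 to 59.3 times in A and at 58.0 to 59.9 times in D. In the combined library it stood at 82.5 (81.0 to 84.1), apart from the other three libraries.

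Scgb3a2 relative to Cldn10 showed the same library apart, with 55.8, 55.4 and 54.7 in the vehicle, amiodarone and dabigatran libraries and 35.3 with both drugs. Scgb1a1 relative to Cbr2 was lowest with amiodarone, at 15.6, and was 18.1 with vehicle, 17.9 with dabigatran and 18.6 with both drugs. Relative to Sftpc, Scgb1a1 was 6.18 in V, 3.78 in A, 4.98 in D and 4.80 in A+D.

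**Figure D4:**
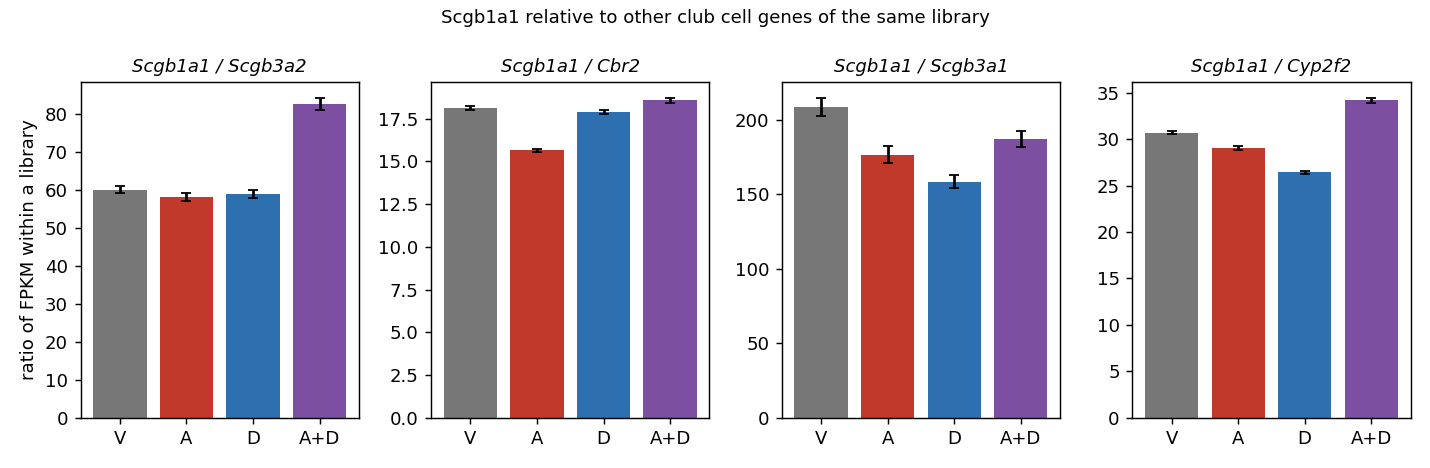
Ratio of the FPKM of Scgb1a1 to that of Scgb3a2, Cbr2, Scgb3a1 and Cyp2f2 within each library (linear axes from 0, one scale per panel); bars are the vehicle (V), amiodarone (A), dabigatran (D) and combined (A+D) libraries and error bars are 95% counting intervals. Scgb1a1 over Scgb3a2 is 58.2 in A, 58.9 in D and 82.5 in A+D.

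Of 16 other secretoglobin symbols looked for, 2 were in the table. Scgb1c1 measured 30.4 FPKM in V, 16.0 in A, 26.2 in D and 22.7 in A+D, so its amiodarone value was the lowest, as for Scgb1a1. Its ratio of amiodarone to vehicle was 0.527 (0.415 to 0.666). Scgb1b30 had 1 read in the vehicle library and 0 in the others, where a count of 0 allows up to 3 reads.

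A list of 35 other genes described for club cells gave a mixed picture. With amiodarone against vehicle, 26 of the 34 detected were lower and 8 higher beyond counting error, and the median log2 ratio was -0.34. Of all detected genes, 30.1% were lower and 19.5% higher in this way. Cyp2f2, a cytochrome P450 that oxidizes naphthalene, had the highest vehicle level and went from 4044 to 2549 FPKM, at a ratio of 0.630 (0.625 to 0.636). Lypd2, of the Ly6 family, went from 141 to 55.9 FPKM at a ratio of 0.396 (0.355 to 0.442).

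At the far ends of the list were Upk3a, a uroplakin of a club cell subset, and Cyp2b10, an inducible cytochrome P450. Upk3a had 20 reads with vehicle and 7 with amiodarone. Cyp2b10 was higher, at 340 FPKM with amiodarone against 194 with vehicle, a ratio of 1.75 (1.70 to 1.81).

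With dabigatran against vehicle the club cell list had a median of -0.09. Of 34 genes, 15 were lower and 8 higher beyond counting error, where 13.4% of all detected genes were lower and 15.2% higher. In the combined against the amiodarone library the list was at 0.04, with 8 lower and 15 higher of 33. There 15.0% of all detected genes were lower and 21.1% higher. In the combined against the dabigatran library the list was at -0.23, with 20 lower and 6 higher of 33. There 23.5% of all detected genes were lower and 19.5% higher. Cyp2f2 in this last pair was at 2861 against 3746 FPKM, a ratio of 0.764 (0.757 to 0.770), while Scgb1a1 was at 0.987.

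Markers of other cells in the lung did not all go the same way. Beside the counts in this and the next paragraph, 30.1% of all detected genes were lower and 19.5% higher with amiodarone beyond counting error. For both drugs against dabigatran these shares were 23.5% and 19.5%. Of 19 detected genes of ciliated airway cells, 18 were lower and none higher with amiodarone beyond counting error, with a median of -0.52. For both drugs against dabigatran, 7 of 19 were lower and none higher, with a median of -0.13. Tppp3, a tubulin-binding protein with the highest vehicle level of the list, went from 524 to 339 FPKM. The summed level of the ciliated list was 1184 FPKM in V, 803 in A, 1029 in D and 910 in A+D.

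Of 12 general epithelial genes, 11 were lower with amiodarone beyond counting error, with a median of -0.24. For both drugs against dabigatran, 4 were lower and 4 higher, with a median of -0.09. With amiodarone against vehicle, the 12 alveolar type 2 genes had a median of 0.13, with 3 lower and 9 higher. High read numbers let small differences pass counting error, as for Sftpc, counted as lower at 0.976 (0.970 to 0.981). The summed level of the type 2 genes over the 4 libraries stayed between 26894 and 29005 FPKM. In the same comparison the 10 alveolar type 1 genes had a median of 0.01, with 4 lower and 5 higher. Igfbp2, an insulin-like growth factor binding protein, had the lowest ratio of these 10 at 0.489 (0.466 to 0.512). For both drugs against dabigatran, the medians were 0.19 for type 2 and -0.08 for type 1 genes. Of 7 basal cell markers, Dapl1 was at 2.66 FPKM with vehicle and the others were below 1 FPKM, with the keratin gene Krt5 at 0.03.

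Inflammatory cell markers were higher in both amiodarone libraries. Of 16 macrophage genes 14 were higher and none lower beyond counting error with amiodarone against vehicle, where 19.5% of all detected genes were higher, with a median of 0.99, and the median was 0.93 for the combined against the dabigatran library. Neutrophil genes had medians of 2.62 and 2.57, and their summed level ranged from 73.7 to 618 FPKM. The 2 pairs of libraries thus had much the same medians for both inflammatory cell types. The 5 club cell genes had -0.69 and -0.07, while the list of other club cell genes had -0.34 and -0.23. Ciliated genes had -0.52 and -0.13, and general epithelial genes -0.24 and -0.09. In the combined against the amiodarone library, neutrophil genes had a median of -0.38, with 7 of 10 lower and none higher beyond counting error. Macrophage genes had a median of 0.01 in that comparison, with 7 lower and 7 higher of 16. The shares over all detected genes there were 15.0% lower and 21.1% higher. The part of cell composition in these results was not tested.

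Genes of goblet and mucous cells, the other secretory lineage of the airway, stood differently in the comparisons with the dabigatran library. Muc5b is in both this list and the list of other club cell genes. With amiodarone against vehicle, 3 of 7 detected were lower and 1 higher beyond counting error, with a median of -0.20. There 30.1% of all detected genes were lower and 19.5% higher. With dabigatran all 8 detected were above vehicle, 4 of them beyond counting error, with a median of 0.45. Of all detected genes, 15.2% were higher beyond counting error in this comparison. In the combined library all 8 were below dabigatran, 7 beyond counting error, with a median of -1.48. Of all detected genes, 23.5% were lower beyond counting error there. Some of the 8 were at low levels and rested on few reads. Clca1, a secreted protein of mucous cells, was at 3.53 FPKM in V, 8.72 in A, 14.0 in D and 1.08 in A+D.

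Bpifb1, a secreted antimicrobial protein with the highest vehicle level of the goblet list, was at 115 FPKM in V, 101 in A, 179 in D and 67.0 in A+D. Bpifa1, a related secreted protein of the club cell list, was at 255, 178, 443 and 149 FPKM. Both were highest with dabigatran and lowest with both drugs, an order that among the 5 club cell genes none had.

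**Figure D5:**
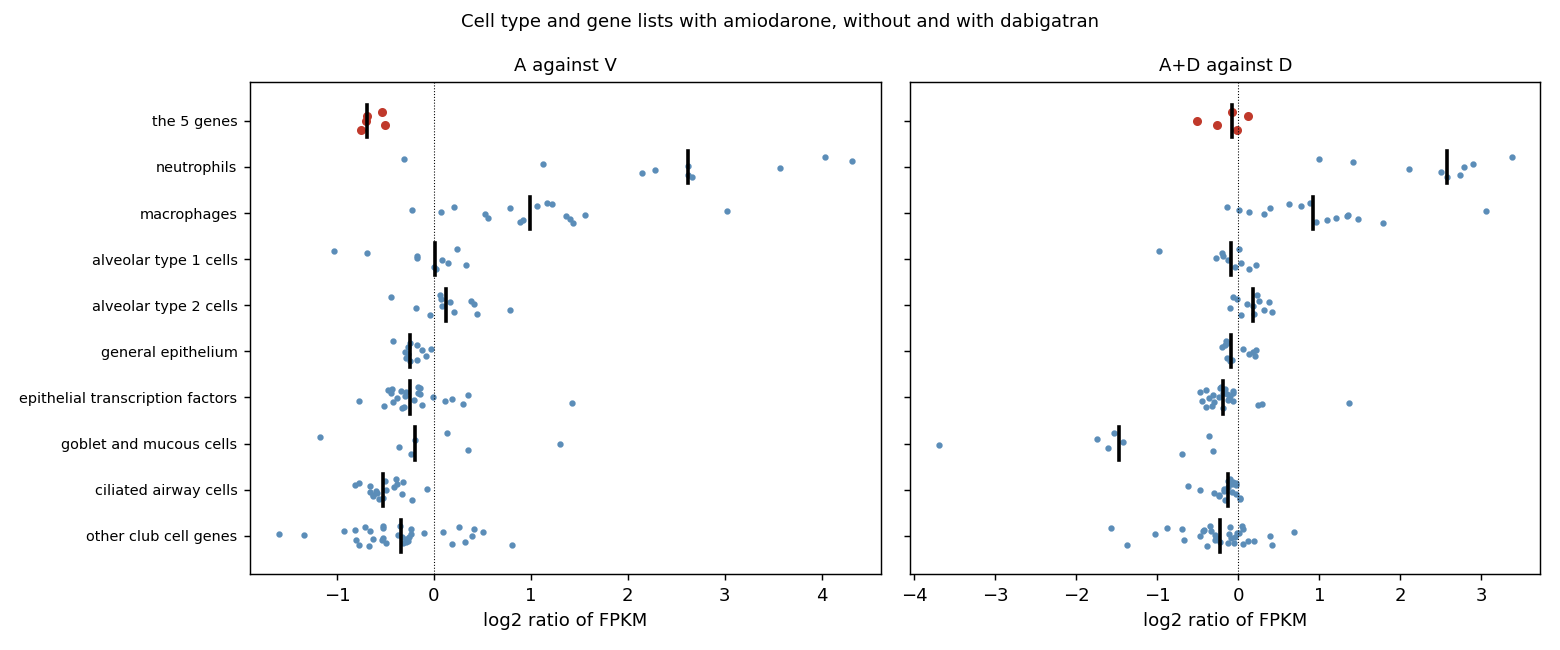
Log2 ratio of FPKM for single genes (points) and the median (black bar) of the 5 club cell genes and of gene lists by cell type, for amiodarone against vehicle (left) and for both drugs against dabigatran (right). The 5 genes have a median of -0.69 on the left and -0.07 on the right, while the medians of neutrophil and macrophage genes lie to the right of 0 in both panels.

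Transcription factors of the airway and lung epithelium were mostly lower with amiodarone against vehicle, at 17 of 24 beyond counting error, with 3 higher and a median of -0.25. Of all detected genes, 30.1% were lower and 19.5% higher in this way. For both drugs against dabigatran, 14 of 24 were lower and 3 higher, with a median of -0.19. There 23.5% of all detected genes were lower and 19.5% higher. Nkx2-1, which is needed for lung epithelial identity, was at 132 FPKM in V, 105 in A, 123 in D and 108 in A+D. Sox2, a factor of the conducting airway, was at 14.6, 8.58, 12.2 and 8.91 FPKM. Cebpd, an acute-phase factor of the C/EBP family, was among the 3 that were higher with amiodarone against vehicle, with 47.1, 126, 37.1 and 95.2 FPKM. The other two were Cebpb, of the same family, at a ratio of 1.23 (1.16 to 1.30) and Elf3, an epithelial ETS factor, at 1.14 (1.02 to 1.26).

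Notch signaling favors secretory over ciliated cell fate. Of 16 Notch pathway genes, 6 were lower and 4 higher with amiodarone beyond counting error, with a median of -0.07. As a share this is near the 30.1% and 19.5% of all detected genes in that comparison. For both drugs against dabigatran, 10 of 16 were lower and 3 higher beyond counting error, with a median of -0.12. There 23.5% of all detected genes were lower and 19.5% higher. Hes1, a target of the pathway, was at 80.9, 54.9, 73.9 and 46.2 FPKM, and Dll1, a ligand, was at 10.6, 21.3, 13.0 and 15.4 FPKM.

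Cldn10 was set beside its family. Of 12 other claudins detected, 7 were lower and 1 higher with amiodarone beyond counting error, with a median of -0.21, against -0.69 for Cldn10. Cldn18, the main claudin of alveolar cells, went from 347 to 270 FPKM, at a ratio of 0.777 (0.760 to 0.795). Of 12 other carbonyl and aldo-keto reductases detected, 5 were lower and 2 higher, with a median of -0.13. For both lists, the shares over all detected genes were 30.1% lower and 19.5% higher. Cbr3 was at 18.2 FPKM with vehicle and 8.65 with amiodarone, and Akr1c14 at 20.2 and 36.4.

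Foxa factors, Nkx2-1 and C/EBP factors are known regulators of secretoglobin promoters, and the 250 bases before the start were searched for their letters. RefSeq windows on GRCm38.p6 are shown for 3 of the 5 genes (4 windows, since Cldn10 has 2 starts); Scgb1a1 and Scgb3a2 are named only. Both strands were searched for TGTTTNC (FOXA, found in 17.8% of 32851 windows of this length), CTCAAG or CAAGTG (NKX2-1, 22.6%; these can overlap each other) and TTGCNNAA (C/EBP, 9.56%). Capitals mark the matches, and each window is printed 5′ to 3′ along its gene.
Scgb3a1 (chr11:49663345-49663594, plus strand): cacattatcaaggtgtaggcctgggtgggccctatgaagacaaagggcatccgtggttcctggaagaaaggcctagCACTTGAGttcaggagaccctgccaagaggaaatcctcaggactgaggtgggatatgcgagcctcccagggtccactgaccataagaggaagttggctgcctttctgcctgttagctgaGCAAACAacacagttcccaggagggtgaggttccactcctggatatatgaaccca
Cbr2 (chr11:120732022-120732271, minus strand): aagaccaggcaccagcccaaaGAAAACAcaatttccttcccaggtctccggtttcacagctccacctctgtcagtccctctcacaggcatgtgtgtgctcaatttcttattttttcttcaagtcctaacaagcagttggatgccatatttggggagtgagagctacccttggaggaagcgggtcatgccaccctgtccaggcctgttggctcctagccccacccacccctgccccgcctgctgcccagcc
Cldn10, upstream start (chr14:118787621-118787870, plus strand): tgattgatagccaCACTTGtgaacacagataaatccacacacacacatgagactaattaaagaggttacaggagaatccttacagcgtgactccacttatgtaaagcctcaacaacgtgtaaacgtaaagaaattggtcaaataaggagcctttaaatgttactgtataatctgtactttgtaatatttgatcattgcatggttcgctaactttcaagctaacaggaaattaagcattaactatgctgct
Cldn10, downstream start (chr14:118854700-118854949, plus strand): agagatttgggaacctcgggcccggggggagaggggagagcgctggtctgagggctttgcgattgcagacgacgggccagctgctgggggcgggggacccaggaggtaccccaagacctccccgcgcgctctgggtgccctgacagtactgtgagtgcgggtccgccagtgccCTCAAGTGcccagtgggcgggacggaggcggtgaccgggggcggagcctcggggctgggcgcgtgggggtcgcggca

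The Scgb3a1 window holds 1 FOXA match, ending 49 bases before the start, and 2 overlapping NKX2-1 matches. The Cbr2 window holds 1 FOXA match and no NKX2-1 match. Each Cldn10 window holds NKX2-1 letters, 1 match at the upstream start and 2 overlapping matches at the downstream start, and no FOXA match. The Cldn10 windows also differ in base composition, with 36.0% G and C at the upstream and 72.4% at the downstream start. No printed window holds a C/EBP match. A match describes letters only.

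Among 7419 genes with at least 10 FPKM in at least 1 library, the 5 genes nearest to each in pattern over the 4 libraries were found by the Euclidean distance of centered log2(FPKM + 1) values. For Scgb1a1 these were 1700024G13Rik, Fam183b, Npw, Tekt1 and Rsph9, at distances of 0.047 to 0.116. Fam183b and Tekt1, which encode parts of the ciliary axoneme, and Rsph9, of the radial spoke, belong to motile cilia. Fam183b was at 58.6, 33.3, 48.4 and 47.5 FPKM.

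For Cbr2 the nearest were Fam216b, Lrrc51, Klhdc8b, Rtkn and 1700094D03Rik (0.038 to 0.056), and for Cldn10 they were Six5, Apip, 1700024G13Rik, 2510002D24Rik and Tmem107 (0.040 to 0.137). For Scgb3a1 they were Itga8, Creb3l1, Wdr6, Mmp23 and Smo (0.013 to 0.046). For Scgb3a2 they were Ckmt2, Csrp3, Tpm1, Fndc5 and Rbp4 (0.054 to 0.083), of which Ckmt2, a mitochondrial creatine kinase, and Csrp3, a muscle LIM protein, are genes of striated muscle. Csrp3 was at 45.3, 27.9, 35.5 and 24.5 FPKM. With 4 libraries, many genes lie close to any pattern.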

How the data were processed

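Poly(A) RNA of the left lung was sequenced on DNBseq, with 1 library for each of 4 groups, assigned from the labels. The authors mapped reads to GRCm38.p6 with HISAT and Bowtie2 and deposited estimated counts from RSEM per gene. They also deposited normalized values, read here as FPKM because reads per unit value differed between the amiodarone and vehicle libraries by 1.07, as did their total reads. Another 8 columns hold the authors' means of 2 libraries and were not used.

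Ratios were taken on FPKM. Clopper-Pearson 95% intervals came from rounded estimated counts (Python 3.11.15, scipy 1.17.1), and the calculation was tested on simulated data. Genes count as detected at 1 FPKM in either library. Without replicates nothing was tested. The 5 genes, the lists, the gene pairs and the motifs were chosen with earlier results of these data known. Named were the 5 genes, up to 4 genes per list (highest vehicle level and largest differences either way) and the 5 nearest patterns; Bpifa1, Krt5, Cebpb and Elf3, and the gene pairs, were chosen after their values were seen. Of the gene identifiers, 99.4% were found in RefSeq. Gene lists not described in the report are tight junction partners, neuroendocrine cells and ubiquitous genes, given in the closing section. Alternatives were pseudocounts, filters, fold thresholds and scalings, and scaling to 19 ciliated or 12 epithelial genes was added after seeing the data.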

Additional observations from a re-analysis of the deposited data

Results flagged for a closer look

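Differences between drug effects in 4 results had opposite signs in the 2 settings, each resting on single libraries, and none was tested. The log2 ratio of Scgb1a1 with dabigatran was -0.33 without amiodarone and 0.40 with it, a difference of 0.73. That of Cldn10 with dabigatran was -0.27 without amiodarone and 0.55 with it, a difference of 0.82. Seen the other way, Cldn10 with amiodarone was at -0.69 without dabigatran and 0.13 with it, the same difference of 0.82. Cbr2 with dabigatran was at -0.31 without amiodarone and 0.15 with it, a difference of 0.46. The value of 0.13 for Cldn10 was within counting error. Its value of -0.27 was within counting error when scaled to the ciliated list (-0.03, -0.20 to 0.15) or to the epithelial list (-0.16, -0.34 to 0.01). The opposite signs of Cbr2 were lost when scaled to the ciliated list, where its value with amiodarone was -0.02.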

How the results depend on the processing

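With pseudocounts of 1 and 0.1, none of the 20 single-gene log2 ratios left its counting interval. Reads scaled to the library total moved 1 of 20, and rescaling by the median ratio or leaving out the 12 top genes moved 7 each, with no change of direction. Scaled to the ciliated list (chosen after seeing the data), the medians of the 5 genes were -0.14 for amiodarone against vehicle, -0.058 for dabigatran against vehicle, 0.14 for both drugs against amiodarone and 0.063, the opposite sign, for both against dabigatran. Single genes with the opposite sign there were Scgb3a1 (0.046) and Cbr2 (0.018) for amiodarone against vehicle, Cbr2 (-0.020) for both against amiodarone, and Scgb1a1 (0.12) and Cbr2 (0.063) for both against dabigatran. Scaled to general epithelium (also chosen after seeing the data), the medians were -0.47 for amiodarone against vehicle, -0.19 for dabigatran against vehicle and -0.0068 for both against dabigatran, and Scgb1a1 was at 0.047 in the last. These lists were themselves lower with amiodarone, and the cause was not tested. At 2-fold, 0 of the 5 genes were lower with amiodarone, against 3 at 1.5-fold. As a share of the FPKM total, Scgb1a1 was 21.0%, 13.3%, 17.6% and 17.1% in the vehicle, amiodarone, dabigatran and combined libraries, and with the other top genes left out of the reads it was 5.41%, 3.23%, 4.30% and 4.28%. No paired analysis was possible because each group holds 1 library. One library per group leaves animal variation unmeasured, and depth limits only Cldn10 and the low list genes.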

Other observations

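Of 8 tight junction partners, 4 were lower and 2 higher with amiodarone against vehicle beyond counting error, with a median log2 ratio of -0.19. The median was -0.15 for both drugs against dabigatran. The shares over all detected genes with amiodarone against vehicle were 30.1% lower and 19.5% higher. Of 5 detected neuroendocrine genes, none was lower and 2 were higher with amiodarone beyond counting error, with a median of 0.19. These were Calca, at 0.65 and 1.64 FPKM (ratio 2.52, 1.33 to 5.06), and Resp18, at 1.40 and 2.85 FPKM (2.04, 1.10 to 3.94), both at low levels. The 12 ubiquitous genes had a median of -0.03 with amiodarone against vehicle and 0.08 for both drugs against dabigatran.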
